A study of Mus musculus with 20 samples.

Results

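The class I odorant receptors of mouse chromosome 7 were followed through a sort of olfactory cells by recent activity and through exposure to an odor. They were chosen by position and name: a probe set belonged to the set if it lies on chromosome 7 by its array identifier and its symbol lies between Olfr543 and Olfr692 or between Olfr64 and Olfr69, or is Olfr33. This gave 119 receptors, each with 1 probe set, of 1080 odorant receptors and 22206 gene probe sets measured. Olfr78, which the rule also names, was not analysed here. The rule used no measured value, though earlier results of these data were known when the receptors were chosen.

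All mice carried the S100a5-tauGFP reporter, in which green fluorescent protein (GFP) follows S100a5, a calcium-binding protein gene that olfactory sensory neurons transcribe when they are active, so GFP+ cells are taken as recently active neurons. The 30 mice, 7 to 12 weeks old and of both sexes, lived for 40 h in chambers with a clean air flow of 3.1 L/min. Pulses lasting 10 s and given every 20 min started after 26 h, and consisted either of an artificial cigarette smoke odor (odor) or of filtered air (vehicle). The olfactory mucosa of 3 mice was pooled and sorted, which gave 4 groups of 5 samples: GFP+ and GFP- cells of odor-exposed pools, and GFP+ and GFP- cells of vehicle pools. The series' design text names another odorant, bourgeonal, and the sample titles were followed here. The labels do not give the sex of the mice in each pool, and every animal carried the reporter, so there was no group without it. The GFP- fraction is every cell of the mucosa without fluorescence, not inactive neurons alone.

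Class I receptors are the odorant receptors that land vertebrates share with fish. In the mouse they lie together in a cluster on chromosome 7, are used mainly by neurons of the dorsal zone of the olfactory epithelium, and are known for responses to water-soluble odorants such as carboxylic acids. A mature sensory neuron transcribes an allele of a single receptor gene, so in a sorted sample the RNA of a receptor follows both the number of neurons that chose it and the RNA in each of them. Fewer cells of a type and less RNA per cell cannot be told apart in these bulk samples.

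The label was checked against older receptor names. The RefSeq gene table (assembly GRCm38.p6) placed all 119 genes on chromosome 7 and gave 116 of them a family number between MOR1 and MOR42, the numbers that class I families carry, from 41 different families. Olfr596 had no such name. The family number was read from the digits before a hyphen, which the names of Olfr652 (MOR318) and Olfr681 (MOR4014) lack. Their families were therefore left unassigned, which does not place them outside class I. Whether these names stand for members of MOR31 and MOR40 was not checked. In the RefSeq order 20 other named genes of the array lie between the members, among them beta-globin genes and members of the Trim family. The 3 beta-globin genes of the array with a name in this order, Hbb-bh2, Hbb-bh1 and Hbb-y, separate Olfr69, Olfr68 and Olfr67 from Olfr66, Olfr64 and Olfr65.

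Values are the deposited log2 signals, on which a difference of 1 is a 2-fold difference. The arrays carried no detection calls. As a guide to background, the 23 background control probe sets had array medians of 5.14 to 6.34, and a group whose mean signal did not exceed 6.34 is said to lie at background; a fold against such a group is given as a lower bound, taken against the higher of its own signal and the background median on each array. By this measure 29 of 119 class I receptors (24.4%) lay at background in all 4 groups, against 18% of 111 other receptors of the chromosome 7 rows, 13.0% of the 961 other odorant receptors of the array and 45.2% of all probe sets. Replicate 5 stood apart in every group: its 4 arrays had a median signal over genes of 7.03 to 7.46, against 6.06 to 6.39 on the other 16 arrays. S100a5 itself was higher in GFP+ cells by 2.15 ± 0.36 in odor pools and 1.3 ± 0.36 in vehicle pools (log2 change ± SE, adjusted p = 0.00131 and 0.0368, limma), whereas Omp, the marker of mature sensory neurons, changed by 0.12 ± 0.23 and 0.22 ± 0.23 (adjusted p = 0.901 and 0.717).

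The sort divided the class I receptors in both directions. In odor pools 26 of 119 were higher and 13 lower in GFP+ than in GFP- cells, and in vehicle pools 29 were higher and 11 lower (limma on within-pool differences, 5 pools per condition, Benjamini-Hochberg adjusted p under 0.05 over all 22206 probe sets). These are 32.8% of the class I receptors in odor pools, where 7.89% of all probe sets passed (2.07% higher and 5.82% lower), and 33.6% in vehicle pools, where 9.11% passed (2.26% higher and 6.86% lower). The strongest gain was that of Olfr613, and the strongest loss that of Olfr677. Of the called receptors, 37 of 39 in odor pools and 38 of 40 in vehicle pools moved the same way in all 5 pools. The samples of the fractions did not overlap at all for 17 receptors in odor pools and 16 in vehicle pools, against 5.07% and 4.74% of all probe sets. Left without odor replicate 5 the odor count was 25, with array weights it was 61, and without matching the fractions of a pool it was 18, against 20 for vehicle pools. The calls over all probe sets moved as well. In odor pools 1752 became 1296, 3366 and 1050 under these settings, and in vehicle pools 2024 became 1198 without matching.

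Cells other than neurons also differed between the fractions. All 8 measured white blood cell genes (of 9 listed) were lower in GFP+ cells in both conditions, and their summed signal was 9.56 to 10.03 in GFP+ samples, against 18.62 to 20.00 in GFP- samples, in odor pools and 9.69 to 10.30 against 18.97 to 20.39 in vehicle pools (log2). In odor pools the GFP+ means of the white cell genes Ptprc (6.31), Itgam (4.58), Csf1r (5.66) and S100a9 (5.83) lay at background. Of 8 genes of immature sensory neurons 5 were lower in GFP+ cells in each condition, with list medians of -2.48 in odor and -2.52 in vehicle pools. None of 12 mature neuron genes passed in either condition (medians 0.42 and 0.50), and the summed signal of that list was 20.92 to 22.09 in GFP+ samples and 20.81 to 21.89 in GFP- samples of odor pools. Of 3 genes listed for the dorsal zone (Nqo1, Acsm4 and Robo2) none passed. None passed either of 6 measured genes of a ventral list (Ncam2, Nrp2, Sema3f, Plxna1, Cntn4 and Kirrel2), not all of which are graded by zone. The part of these other cells in the receptor changes was not tested.

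**Figure D1:**
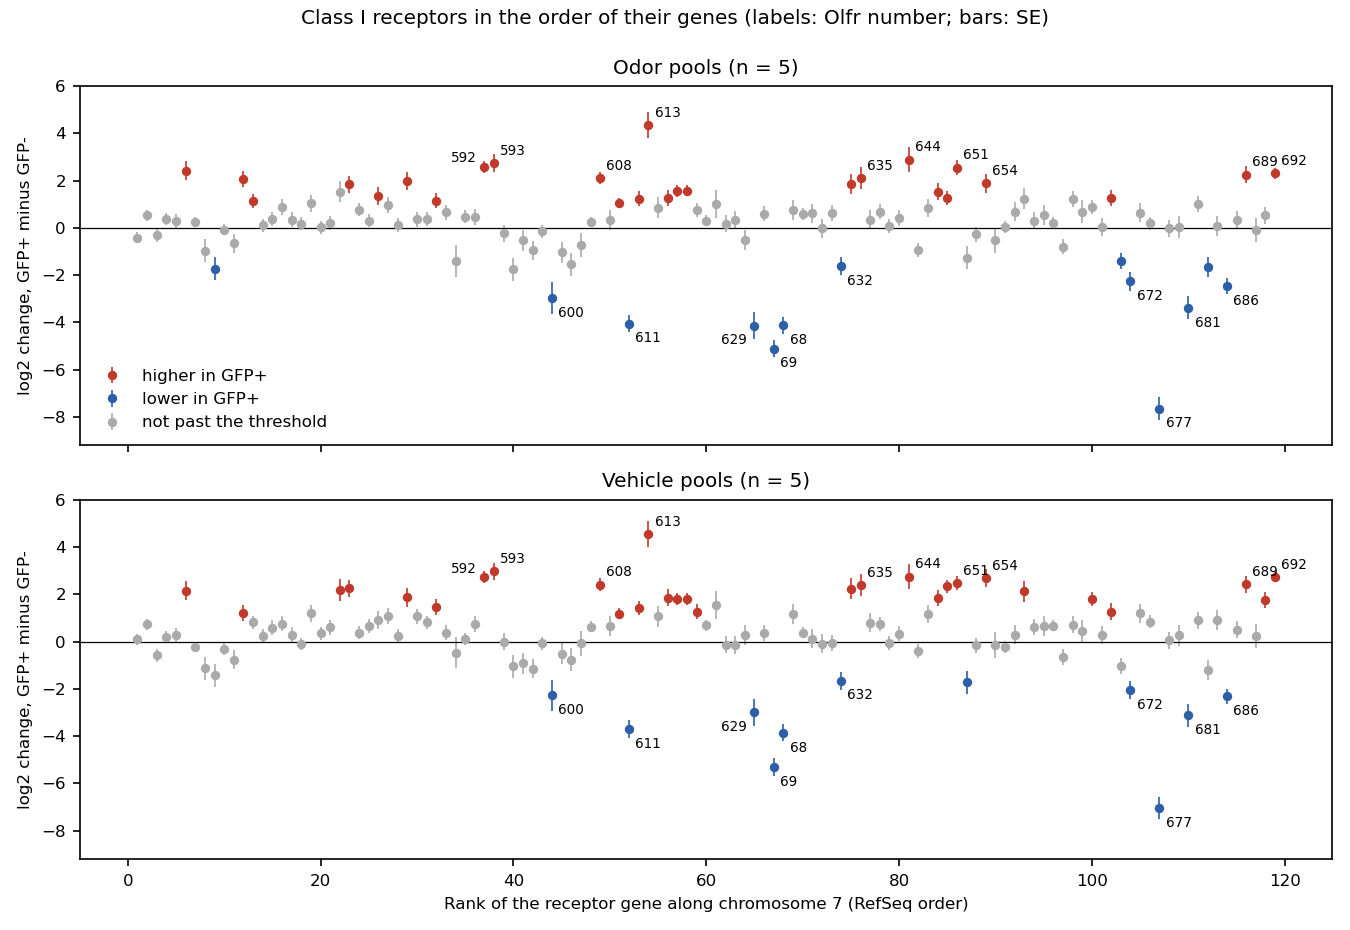
Log2 change GFP+ minus GFP- of each of the 119 class I receptors (points, with SE) in odor pools (top) and vehicle pools (bottom), against the rank of the gene along chromosome 7. Receptors higher in GFP+ cells (26 in odor and 29 in vehicle pools, red) and lower ones (13 and 11, blue) are interspersed along the cluster, and Olfr677 is the lowest point in both panels.

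Olfr613, a receptor of family MOR20, had the largest rise. In odor pools 1 to 5 it read 9.86, 8.25, 8.76, 6.81 and 11.10 in GFP+ cells, against 4.51, 4.82, 4.60, 4.42 and 4.78 in GFP- cells. In vehicle pools it read 9.58, 9.77, 8.05, 7.91 and 11.56 in GFP+ cells, against 6.5, 4.73, 4.35, 3.83 and 4.77 in GFP- cells. Every GFP+ sample exceeded every GFP- sample of its condition, and the GFP- means lay at background, so the receptor was at least 10.3-fold higher in odor pools and at least 12.3-fold higher in vehicle pools (log2 changes 4.33 ± 0.55 and 4.54 ± 0.55, SE; adjusted p = 0.000143 and 8.58e-05, limma).

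Olfr592 and Olfr593 are neighbours on the chromosome, of families MOR32 and MOR24, and both rose. Olfr592 read 13.81, 12.70, 13.28, 10.75 and 13.74 in GFP+ cells of odor pools 1 to 5, against 10.79, 10.28, 10.19, 9.13 and 10.95 in GFP- cells. Vehicle pools gave 14.29, 14.23, 12.51, 12.68 and 12.98 in GFP+ cells, against 11.58, 11.09, 9.61, 9.80 and 11.01 in GFP- cells. It was higher in the GFP+ sample of every pool, by 2.59 ± 0.25 in odor and 2.72 ± 0.25 in vehicle pools (log2 change ± SE, adjusted p = 1.09e-05 and 6.68e-06, limma), and in odor pools the GFP+ sample of pool 4 lay within the range of the GFP- samples. Olfr593 read 10.77, 8.15, 9.15, 8.20 and 11.05 in GFP+ cells of odor pools, against 7.56, 6.66, 5.95, 5.71 and 7.66 in GFP- cells. The vehicle pools showed 11.08, 8.58, 9.48, 8.64 and 10.37 in GFP+ cells, against 6.44, 6.37, 6.29, 6.73 and 7.50 in GFP- cells. The fractions did not overlap in either condition, and the log2 changes were 2.75 ± 0.37 and 2.97 ± 0.37 (SE, adjusted p = 0.000203 and 0.0001).

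Olfr692 (MOR36), known also from neurons of the vomeronasal organ, had the smallest adjusted p among the receptors that rose in vehicle pools. It read 9.45, 8.86, 8.39, 8.19 and 9.96 in GFP+ cells of odor pools, against 6.70, 6.42, 6.65, 6.10 and 7.51 in GFP- cells. Its vehicle signals were 9.36, 9.39, 8.33, 8.64 and 9.92 in GFP+ cells, against 5.92, 6.71, 5.78, 6.44 and 7.20 in GFP- cells. The fractions stayed apart in both conditions, with log2 changes of 2.30 ± 0.22 and 2.72 ± 0.22 (SE, adjusted p = 1.14e-05 and 2.26e-06, limma).

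Olfr644 (MOR13) rose by 2.88 ± 0.53 in odor and 2.74 ± 0.53 in vehicle pools, against GFP- means at background (5.34 and 6.21), which bounds the rise at 5.56-fold and 6.54-fold or more. Olfr651 (MOR31) rose by 2.54 ± 0.31 and 2.47 ± 0.31, also against GFP- means at background (5.84 and 6.0), at least 5.15-fold and 5.29-fold. Olfr654 (MOR38) rose by 1.88 ± 0.39 and 2.69 ± 0.39. These changes are log2 values with SE, and each was positive in 5 of 5 pools of both conditions. Olfr689 (MOR40) rose by 2.25 and 2.42, Olfr608 (MOR26) by 2.10 and 2.41, and Olfr635 (MOR5) by 2.11 and 2.39 in odor and vehicle pools, and these also moved upward in every pool. The GFP- mean of Olfr635 in vehicle pools was at background (6.34), at least 4.67-fold below the GFP+ mean. Without both pools numbered 5, the odor change of Olfr635 no longer passed (2.02, adjusted p = 0.0693). Without matching the fractions of a pool, the odor calls of Olfr654 (adjusted p = 0.112), Olfr608 (0.0771) and Olfr635 (0.0639) were lost. The other receptors called higher, 16 in odor pools and 19 in vehicle pools, had fitted log2 changes of 1.05 to 2.41 and of 1.18 to 2.33. Of all receptors called higher, 11 in odor pools and 15 in vehicle pools had a GFP- mean at background, so their fitted changes depend on the signal there.

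Olfr677, of family MOR32, changed more than any other class I receptor in either direction. In odor pools 1 to 5 it read 5.18, 4.60, 4.45, 4.41 and 3.82 in GFP+ cells, against 13.54, 10.71, 12.27, 11.09 and 13.11 in GFP- cells. In vehicle pools it read 5.12, 4.89, 4.80, 4.52 and 4.24 in GFP+ cells, against 11.48, 11.97, 10.36, 11.60 and 13.35 in GFP- cells. All 10 GFP+ samples were at background and all 10 GFP- samples well above it, so the receptor was at least 100.0-fold lower in GFP+ cells in odor pools and at least 69.2-fold lower in vehicle pools (log2 changes -7.65 ± 0.48 and -7.04 ± 0.48, SE; adjusted p = 2.61e-07 and 4.96e-07, limma).

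Olfr69 and Olfr68, neighbours of family MOR22 that lie near the beta-globin genes, fell together. Olfr69 read 7.40, 6.63, 7.88, 7.45 and 7.78 in GFP+ cells of odor pools, against 13.49, 11.57, 11.97, 12.02 and 13.63 in GFP- cells. Vehicle pools gave 7.69, 6.94, 7.31, 6.98 and 7.24 in GFP+ cells, against 12.28, 12.71, 11.23, 12.69 and 13.74 in GFP- cells. The fractions were far apart in every pool, and the receptor was 34.6-fold lower in odor and 39.4-fold lower in vehicle pools (log2 changes -5.11 ± 0.37 and -5.30 ± 0.37, SE; adjusted p = 8.88e-07 and 5.62e-07). Olfr68 read 7.58, 6.51, 7.45, 7.73 and 7.46 in GFP+ cells of odor pools, against 12.52, 10.49, 10.96, 10.86 and 12.49 in GFP- cells. The vehicle pools showed 7.79, 6.84, 7.34, 6.96 and 7.33 in GFP+ cells, against 11.55, 11.52, 9.78, 10.51 and 12.20 in GFP- cells. It was 17.4-fold and 14.5-fold lower (log2 changes -4.12 ± 0.36 and -3.86 ± 0.36, SE; adjusted p = 4.75e-06 and 8.56e-06, limma).

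The next receptors of that stretch did not follow them. Olfr67 (MOR31), which lies beside Olfr68, had log2 changes of 0.77 ± 0.42 in odor and 1.15 ± 0.42 in vehicle pools (SE, adjusted p = 0.435 and 0.136), and passed in vehicle pools without vehicle replicate 4 (1.57, adjusted p = 0.0376). Beyond the globin genes, the MOR1 receptors Olfr66 (0.58 and 0.38), Olfr64 (0.61 and 0.12) and Olfr65 (-0.02 and -0.09) did not pass either. The signs for Olfr64 and Olfr65 turned under some settings. Olfr66 lay at background in all 4 groups and passed in odor pools with array weights (0.62, adjusted p = 0.0197). Whether Olfr67 differed from Olfr68 in its change was not tested.

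Olfr611 (MOR15) fell by 4.05 ± 0.37 in odor and 3.69 ± 0.37 in vehicle pools on the log2 scale (SE), to GFP+ means at background (5.72 and 5.78), at least 16.1-fold and 12.2-fold lower. Olfr629 (MOR26) read 4.23, 5.24, 4.62, 4.23 and 4.36 in GFP+ cells of odor pools, against 8.71, 7.65, 8.76, 8.24 and 9.97 in GFP- cells. Its vehicle signals were 6.55, 6.34, 4.69, 4.30 and 4.64 in GFP+ cells, against 7.37, 8.75, 6.70, 8.75 and 9.95 in GFP- cells. The fractions of Olfr629 did not overlap, and it was at least 9.02-fold and 4.88-fold lower (adjusted p = 0.000247 and 0.00276, limma). Olfr681, of the older name MOR4014, fell by 3.38 ± 0.48 and 3.12 ± 0.48, and Olfr672 (MOR32) by 2.26 ± 0.39 and 2.04 ± 0.39 on the log2 scale (SE). Both kept GFP+ means above background, at 7.79 and 7.68 for Olfr681 and at 10.68 and 10.87 for Olfr672.

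Olfr686 (MOR35), Olfr600 (MOR39) and Olfr632 (MOR2) completed the 10 lowest. Their GFP+ means lay at background in both conditions, at 5.66 and 5.92 for Olfr686, 4.94 and 5.09 for Olfr600 and 5.44 and 5.45 for Olfr632. They were at least 4.33-fold, 5.35-fold and 2.8-fold lower in odor pools and at least 4.5-fold, 3.2-fold and 2.75-fold lower in vehicle pools, with fitted log2 changes of -2.47, -2.97 and -1.62 and of -2.32, -2.28 and -1.65. Among the 10 lowest, the calls of Olfr600 and Olfr632 were lost under the most settings. That of Olfr600 in vehicle pools had an adjusted p of 0.0491, and it was lost on leaving out any of 6 pools, with 0.235 without vehicle replicate 5, and on centring the arrays (0.0599). Olfr632 lost its odor call without odor replicate 3 (0.0726) or 5 (0.0721) and its vehicle call without vehicle replicate 5 (0.0705), and Olfr600 lost its odor call without odor replicate 5 (0.0515). Without matching the fractions of a pool, the calls of Olfr686 (adjusted p = 0.299 in odor and 0.326 in vehicle pools) and Olfr632 (0.193 and 0.153) and the vehicle call of Olfr600 (0.124) were lost. The other receptors called lower were Olfr553, Olfr671 and Olfr684 in odor pools and Olfr652 in vehicle pools. The GFP+ means of Olfr553 (4.88) and Olfr671 (4.98) were at background, which bounds the difference at 1.86-fold and 1.85-fold or more, whereas Olfr684 (log2 change -1.67) and Olfr652 (-1.73) were above it in both fractions.

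**Figure D2:**
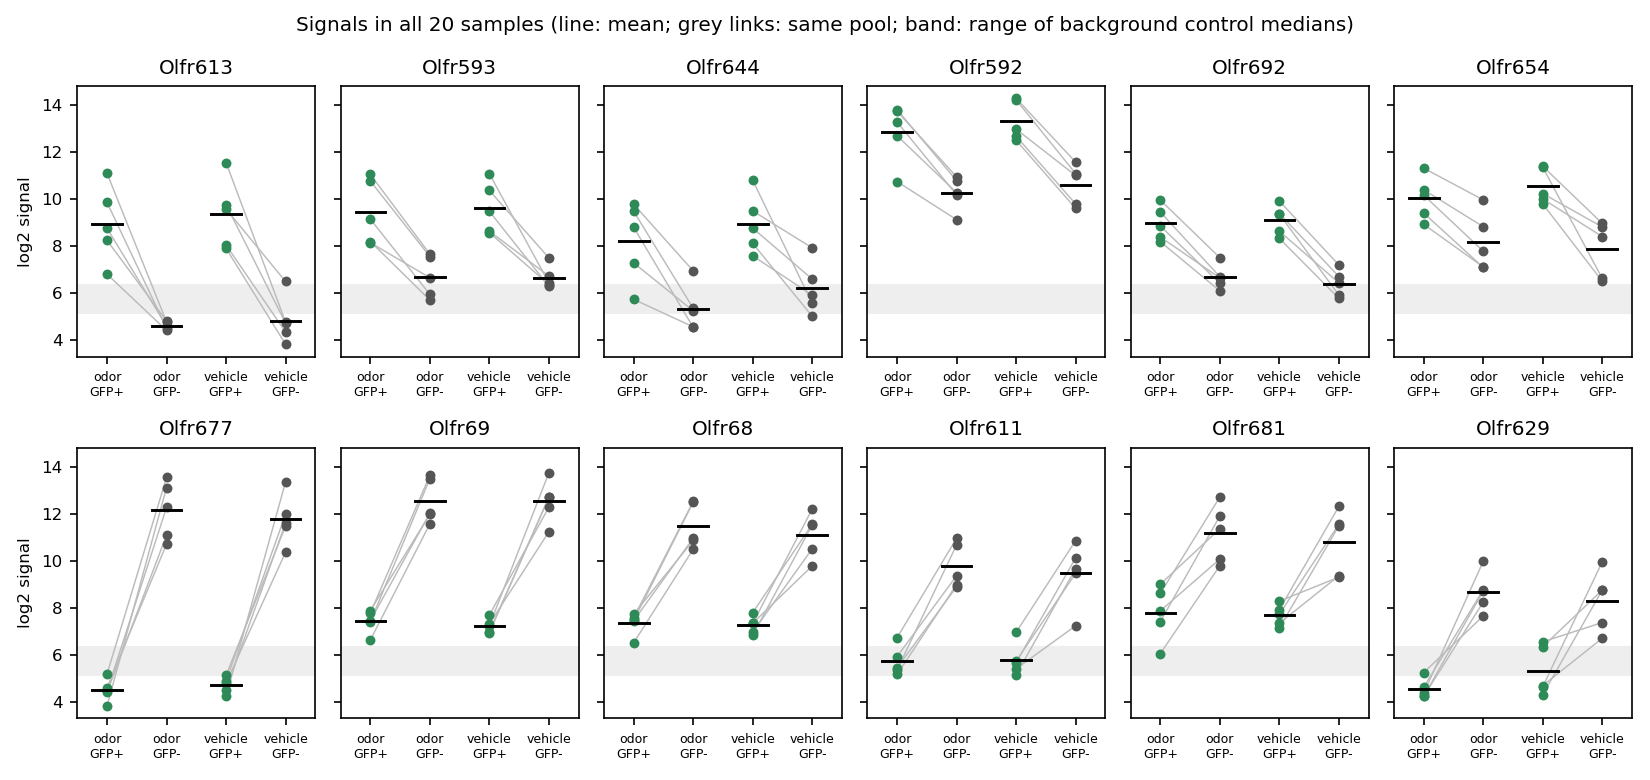
Log2 signal in each of the 20 samples for the 6 receptors that rose most (top) and the 6 that fell most (bottom) in vehicle pools; points are samples, black lines group means, grey lines join the fractions of a pool, and the band is the range of background control medians (5.14 to 6.34). The GFP+ samples of Olfr677 lie at or below the band and its GFP- samples between 10.36 and 13.54.

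Sequences upstream of the receptors were read from RefSeq promoter windows of the same assembly. They are shown for the 5 of the 20 strongest risers and fallers whose annotated start is not the ATG codon itself, so that the bases are those before a transcript rather than before a coding region. Each is the 250 bases before the annotated start, 5′ to 3′ on the gene's strand, with capitals for TAATNA, the core that homeodomain proteins bind, read on both strands. The windows are chr7:103550118-103550367 (plus strand) for Olfr613, chr7:104552634-104552883 (plus) for Olfr651, chr7:104587469-104587718 (plus) for Olfr654, chr7:103741323-103741572 (minus) for Olfr629 and chr7:103771595-103771844 (minus) for Olfr69. The first 3 receptors rose and the last 2 fell in GFP+ cells.
Olfr613: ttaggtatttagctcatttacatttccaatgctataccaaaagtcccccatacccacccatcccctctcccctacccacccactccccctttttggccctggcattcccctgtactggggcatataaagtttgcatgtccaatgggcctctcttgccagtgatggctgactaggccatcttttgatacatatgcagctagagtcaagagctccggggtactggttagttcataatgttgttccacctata
Olfr651: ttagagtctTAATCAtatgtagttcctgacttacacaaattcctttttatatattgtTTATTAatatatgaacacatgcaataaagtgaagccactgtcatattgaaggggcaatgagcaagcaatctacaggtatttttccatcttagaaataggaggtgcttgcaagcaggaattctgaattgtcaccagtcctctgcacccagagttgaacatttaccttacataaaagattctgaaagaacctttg
Olfr654: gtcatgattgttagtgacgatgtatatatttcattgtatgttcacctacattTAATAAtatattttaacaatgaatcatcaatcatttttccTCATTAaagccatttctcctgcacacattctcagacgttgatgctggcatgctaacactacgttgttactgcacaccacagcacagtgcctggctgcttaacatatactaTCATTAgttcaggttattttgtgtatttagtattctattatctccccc
Olfr629: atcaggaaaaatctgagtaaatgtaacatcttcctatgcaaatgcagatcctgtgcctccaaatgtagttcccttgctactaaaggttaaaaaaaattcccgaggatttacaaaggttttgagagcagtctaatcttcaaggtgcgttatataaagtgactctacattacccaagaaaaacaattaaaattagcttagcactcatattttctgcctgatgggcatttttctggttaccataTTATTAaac
Olfr69: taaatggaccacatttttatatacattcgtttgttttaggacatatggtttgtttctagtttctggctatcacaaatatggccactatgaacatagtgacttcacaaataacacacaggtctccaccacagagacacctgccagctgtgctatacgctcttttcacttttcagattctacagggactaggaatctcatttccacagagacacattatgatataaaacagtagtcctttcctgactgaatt
The window of Olfr651 held 2 matches, that of Olfr654 held 3, that of Olfr629 held 1, and those of Olfr613 and Olfr69 held 0.

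Windows were found for 103 of 119 receptors, of which 76 (73.8%) began at an ATG and so lie before a coding-only gene model. TAATNA occurred in 61.2% of the 103, in 64.8% of 822 windows of other odorant receptors and in 24.3% of the 32851 windows of all genes. The palindrome CCCNNGGG, the core of the site bound by Ebf proteins, occurred in 2.91%, 2.55% and 11.8%. Since only 5.83% of all windows began at an ATG, the windows that did not are the closer match: there TAATNA occurred in 63.0% of 27 class I windows, 67.6% of other receptors' and 22.9% of all, and CCCNNGGG in 7.41%, 6.67% and 12.2%. Among the class I receptors called higher in vehicle pools 14 of 23 windows (60.9%) held TAATNA, among those called lower 6 of 8 (75%), and among the rest 43 of 72 (59.7%). A match describes the letters of these windows only.

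The receptors called in the odor pools and in the vehicle pools, which came from different mice, were largely shared. Of those higher in GFP+ cells 24 were called in both conditions, 92.3% of the odor list and 82.8% of the vehicle list. Of those lower 10 were called in both, 76.9% of the odor list and 90.9% of the vehicle list. Both conditions entered the same fit with a shared estimate of spread, so the lists are not independent. The matching overlap over all probe sets was not computed, so these shares do not set the class I receptors apart. None was called in opposite directions, and the log2 changes of the 119 receptors correlated at r = 0.97 between conditions, as a description over probe sets of the same arrays. Olfr557 and Olfr575 were called higher in odor pools alone and Olfr619 in vehicle pools alone, but these 3 lay at background in all 4 groups, so no fold is given. Olfr570, Olfr658, Olfr668 and Olfr691 were also called higher in vehicle pools alone. Their GFP- means there were at background, and the rises were at least 4.05-fold, 3.29-fold, 3.5-fold and 2.0-fold. A call in a single condition does not show that the conditions differ.

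Compared with other odorant receptors, the class I receptors were called less often, by counts alone and with no test of the difference. Of 111 other receptors of the chromosome 7 rows 42 were higher and 9 lower in odor pools (45.9%), and 46 and 11 in vehicle pools (51.4%). Of all 961 other odorant receptors 303 were higher and 172 lower in odor pools (49.4%), and 335 and 159 in vehicle pools (51.4%). The median log2 change of the class I receptors was 0.35 in odor and 0.45 in vehicle pools, against 0.71 and 0.69 for the other chromosome 7 receptors, 0.44 and 0.52 for all other receptors and 0.08 and 0.09 for all probe sets. The SD over receptors was 1.65 and 1.63 in the class I set, against 2.12 and 2.03 in all other receptors. The class I set also held the larger share of receptors at background (24.4% against 13.0%), and the part of that in the lower count was not tested.

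The class I median in single pools was 0.28, 0.24, 0.46, 0.47 and 0.37 for odor pools 1 to 5 (0.37 ± 0.10, SD, n = 5), and 0.93, 0.16, 0.86, -0.01 and 0.28 for vehicle pools (0.45 ± 0.42, SD, n = 5). It was positive in all odor pools and in 4 of 5 vehicle pools, and the vehicle pools were the more spread. The same wider spread appeared in the other chromosome 7 receptors (SD 0.18 in odor and 0.56 in vehicle pools). It also appeared in all other odorant receptors (0.14 and 0.45). The medians of these 2 sets were positive in every pool. Centring each array on its median moved the median over all probe sets to 0.29 in odor pools (0.08 as deposited) and 0.33 in vehicle pools (0.09 as deposited). The calls over all probe sets were then 807 higher and 1055 lower in odor pools (460 and 1292 as deposited), and 1169 higher and 1211 lower in vehicle pools (501 and 1523 as deposited).

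**Figure D3:**
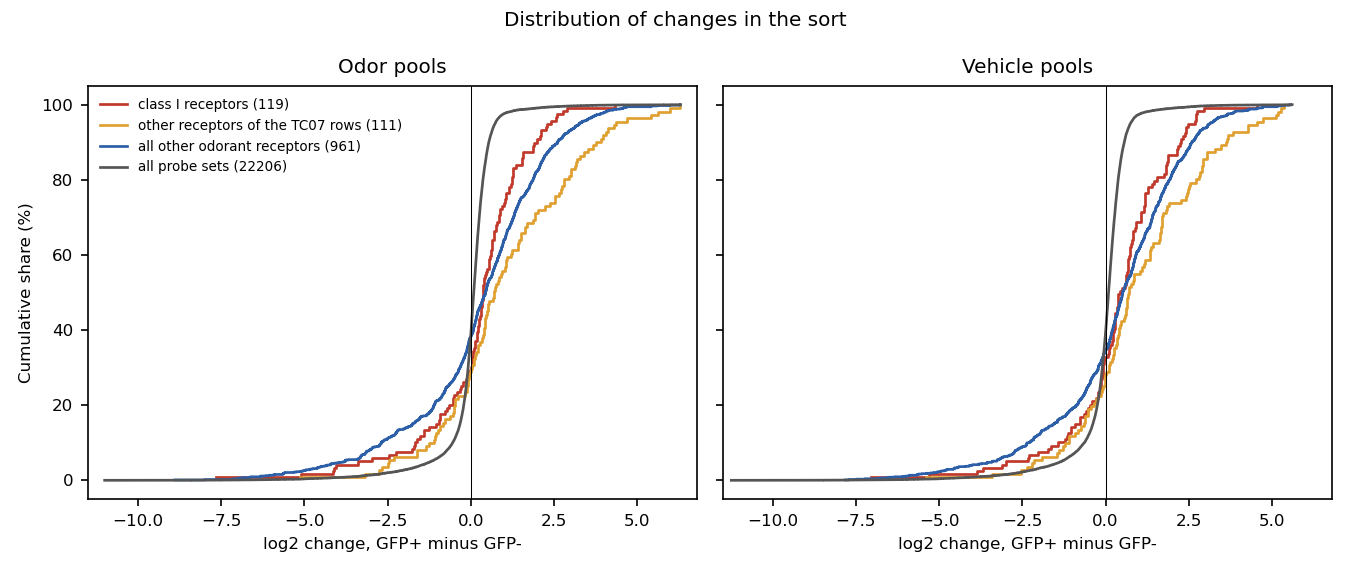
Cumulative share of probe sets (percent) against the log2 change GFP+ minus GFP-, in odor pools (left) and vehicle pools (right), for the 119 class I receptors, 111 other receptors of the chromosome 7 rows, all 961 other odorant receptors and all 22206 probe sets. The class I curve lies between that of all probe sets and those of the other receptors over most of the positive range, with medians of 0.35 and 0.45.

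By receptor family, rises were most numerous in MOR31, which with MOR32 was also the largest, at 11 measured receptors each. Of all class I receptors 21.8% were called higher in odor pools and 24.4% in vehicle pools. The shares were 31.5% and 34.9% of all other odorant receptors and 2.07% and 2.26% of all probe sets. Whether MOR31 differs from the other receptors was not tested. Of the 11 measured receptors assigned to it 5 rose in odor pools and 7 in vehicle pools, and none fell, with median log2 changes of 0.77 and 1.75. Olfr652 (MOR318), with no family assigned, is not counted among them, and it fell in vehicle pools (-1.73). The risers in both conditions were Olfr617 (1.55 in odor and 1.80 in vehicle pools), Olfr618 (1.57 and 1.80), Olfr648, Olfr649 and Olfr651. Olfr648 and Olfr649 had GFP- means at background (5.38 and 5.53, and 5.96 and 5.83), so they were at least 2.38-fold and 2.34-fold higher in odor pools and at least 2.83-fold and 4.85-fold higher in vehicle pools. The family's calls in vehicle pools include Olfr619, at background in all groups. In the same family Olfr549 (0.27 and 0.27) and Olfr547, at background throughout, did not pass. The counts were the same after quantile normalization and after centring, and were 3 and 6 without both pools numbered 5.

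MOR32, also with 11 members, held receptors at both ends: 2 rose and 3 fell in odor pools, and 2 rose and 2 fell in vehicle pools, from Olfr592 at 2.59 and 2.72 to Olfr677 at -7.65 and -7.04. Its median was -0.01 and 0.06, and in odor pools the sign of that median turned on quantile normalization (0.21) and on centring (0.20). In MOR34, of 7 members, 0 passed in odor pools and 2, Olfr658 and Olfr668, rose in vehicle pools, but after centring 2 also passed as higher in odor pools. In MOR14, of 7 members, and MOR1, of 4, none passed in either condition; after centring, 2 members of MOR14 passed as higher in vehicle pools. MOR13, MOR24 and MOR8 each had 1 riser per condition and none that fell, and MOR8 had 2 per condition after centring. MOR40, of 8 assigned members, had 1 riser per condition, and Olfr684 fell in odor pools, a call that was lost without both pools numbered 5. Olfr681 (MOR4014), which fell in both conditions, had no family assigned and is not counted there. After quantile normalization MOR40 had 2 risers per condition.

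**Figure D4:**
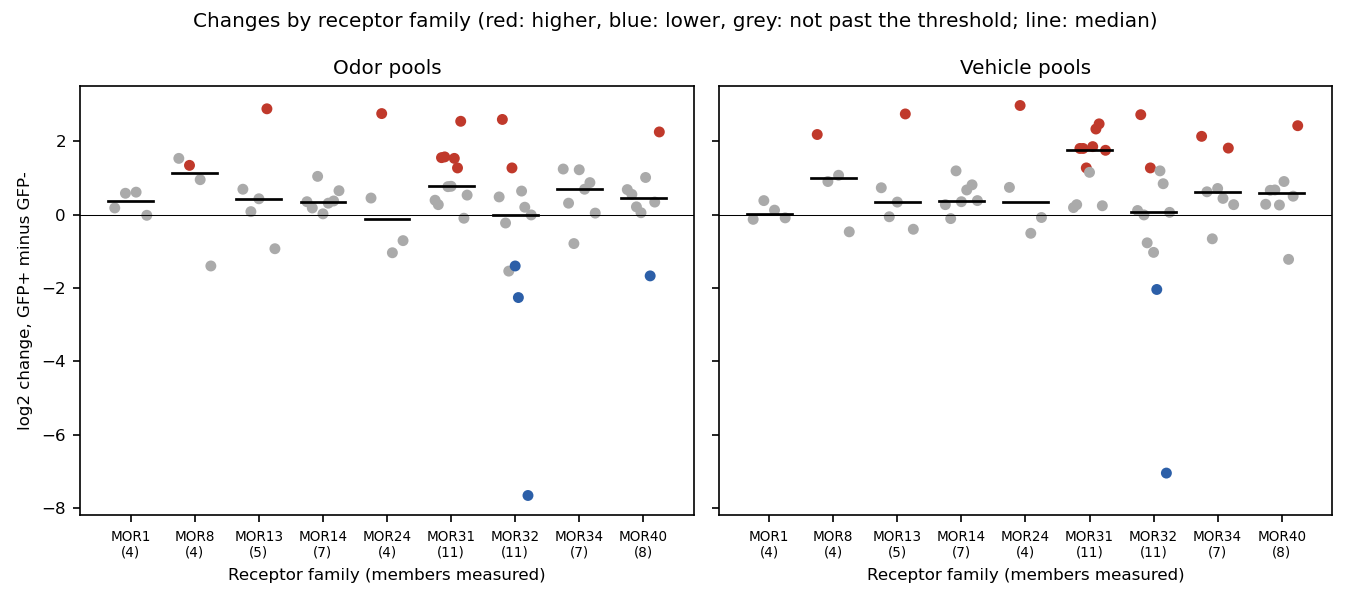
Log2 change GFP+ minus GFP- of the members of the 9 families with at least 4 measured class I receptors, in odor pools (left) and vehicle pools (right); points are receptors, coloured by call, and lines are family medians. Of the receptors assigned to MOR31, 5 and 7 are called higher and none lower, and MOR32 holds both Olfr592 and Olfr677. Olfr596, Olfr652 and Olfr681, with no family assigned, are not shown.

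Adjacent receptors moved both together and apart. Among the 118 pairs of adjacent class I receptors, both were called higher in 8 pairs in odor pools and 10 in vehicle pools, both lower in 2 and 1, and in 4 pairs in each condition a receptor called higher stood beside a receptor called lower. Of all members 21.8% were called higher and 10.9% lower in odor pools, and 24.4% and 9.24% in vehicle pools. Whether the pair counts differ from those of a random order of these calls was not tested, so they do not decide whether there is a pattern along the cluster. Olfr610 (at least 2.05-fold higher in odor and 2.18-fold in vehicle pools, against GFP- means at background), Olfr611 (lower, as bounded with its values) and Olfr612 (log2 change 1.24 and 1.41) gave such a change of direction from gene to gene, with Olfr613 after them. Olfr632, which fell, lay beside Olfr633, which rose (1.86 and 2.24). Of 20 named genes between the receptors none was higher in GFP+ cells. Trim12a, Trim12c and Trim30a, of a family of immune ubiquitin ligases, were lower in odor pools, and these and Trim30b in vehicle pools. Trim30a and Trim30b lay at background in every group, so no fold is given. Of 20 genes for receptor choice and trafficking, 1, Lbr, which encodes a nuclear envelope protein, was lower in both conditions (log2 change -1.94 ± 0.21, SE, in odor pools). The part of the other cells of the GFP- fraction in that change was not tested.

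Receptors of known ligand or orthologue were looked at whatever their values. Olfr544, a receptor for azelaic acid, a dicarboxylic acid, read 6.73, 6.53, 7.00, 7.07 and 8.79 in GFP+ cells of odor pools, against 6.42, 5.80, 6.63, 5.88 and 8.68 in GFP- cells. In vehicle pools it read 6.69, 6.86, 7.41, 7.22 and 9.25 in GFP+ cells, against 5.48, 6.69, 6.41, 6.22 and 8.99 in GFP- cells. It was higher in the GFP+ sample of all 10 pools, with the arrays of replicate 5 highest in each group, but the changes of 0.54 ± 0.23 and 0.73 ± 0.23 (log2, SE) did not pass (adjusted p = 0.240 and 0.0695, limma). In vehicle pools it passed after quantile normalization (0.0229), after centring (0.0169) and without vehicle replicate 2 (0.038). Its neighbours Olfr543 (-0.42 in odor and 0.10 in vehicle pools) and Olfr545 (-0.32 and -0.58), also of MOR42, did not pass, and Olfr543 lay at background in all groups.

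Olfr558, the mouse orthologue of the human receptor OR51E1, lay at background in all 4 groups, with a mean signal of 5.81 ± 0.39 in GFP+ cells and 5.70 ± 0.78 in GFP- cells after odor, while after vehicle the GFP+ mean was 5.60 ± 0.92 and the GFP- mean 5.36 ± 0.84 (SD, n = 5 each). Olfr690 (-0.10 in odor and 0.24 in vehicle pools) and Olfr33 (0.38 and 0.59) did not pass, and the sign for Olfr690 turned under some settings. In all, 80 receptors in odor pools and 79 in vehicle pools did not pass, with log2 changes of -1.76 to 1.53 and of -1.43 to 1.55, and 31 and 30 of them were at background in both fractions.

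Exposure to the odor changed the distribution of no class I receptor past the threshold. The odor effect is the log2 change GFP+ minus GFP- in odor pools minus that in vehicle pools. None of 119 receptors passed for it (limma, 0.0% of all 22206 probe sets), the smallest adjusted p was 1.0, and 3 receptors (2.52%) had an unadjusted p under 0.05, against 4.5% of the other chromosome 7 receptors, 4.27% of all other odorant receptors and 1.21% of all probe sets. The 95% interval of the effect reached, at the median receptor, 1.08 to either side of the estimate on the log2 scale. It lay within a 4-fold change either way (2 on the log2 scale) for 104 receptors and within a 2-fold change (1 on the log2 scale) for 10, so smaller effects were not detectable at this precision. The median effect was -0.21 over the class I receptors, against 0.07 over the other chromosome 7 receptors, -0.12 over all other receptors and 0.01 over all probe sets, and 79 of 119 values were negative. The sign of that median turned without vehicle replicate 1 (0.01) and with array weights (0.02).

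The 3 receptors of smallest unadjusted p all had a smaller GFP+ minus GFP- change in odor pools. Olfr649 (MOR31) read 7.12, 6.96, 7.09, 6.75 and 8.23 in GFP+ cells of odor pools, against 5.74, 6.44, 5.42, 5.98 and 6.22 in GFP- cells. Vehicle pools gave 8.79, 8.04, 7.74, 7.11 and 9.12 in GFP+ cells, against 5.32, 5.53, 5.89, 5.62 and 6.76 in GFP- cells. It rose in both conditions against GFP- means at background, and the GFP+ samples of the conditions overlapped. The odor effect, which rests on those background values too, was -1.07 (95% interval -1.96 to -0.17, unadjusted p = 0.0229, adjusted p = 1.0, limma).

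Olfr691 (MOR31) read 5.90, 4.68, 5.61, 5.44 and 7.01 in GFP+ cells of odor pools, against 5.89, 4.92, 4.99, 4.14 and 6.06 in GFP- cells. The vehicle pools showed 6.41, 6.98, 5.99, 4.79 and 9.08 in GFP+ cells, against 4.13, 4.58, 4.59, 4.77 and 6.41 in GFP- cells. Most of these samples were near background, the vehicle call was lost without matching the fractions (adjusted p = 0.163), and the odor effect was -1.22 (-2.30 to -0.15, unadjusted p = 0.0286). Olfr668 (MOR34) had an odor effect of -0.94 (-1.84 to -0.04, unadjusted p = 0.0413). The other 7 of the 10 smallest p values belonged to Olfr556 (0.87), Olfr676 (-0.64), Olfr543 (-0.52), Olfr582 (-0.71), Olfr551 (0.48), Olfr654 (-0.81) and Olfr658 (-0.89).

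**Figure D5:**
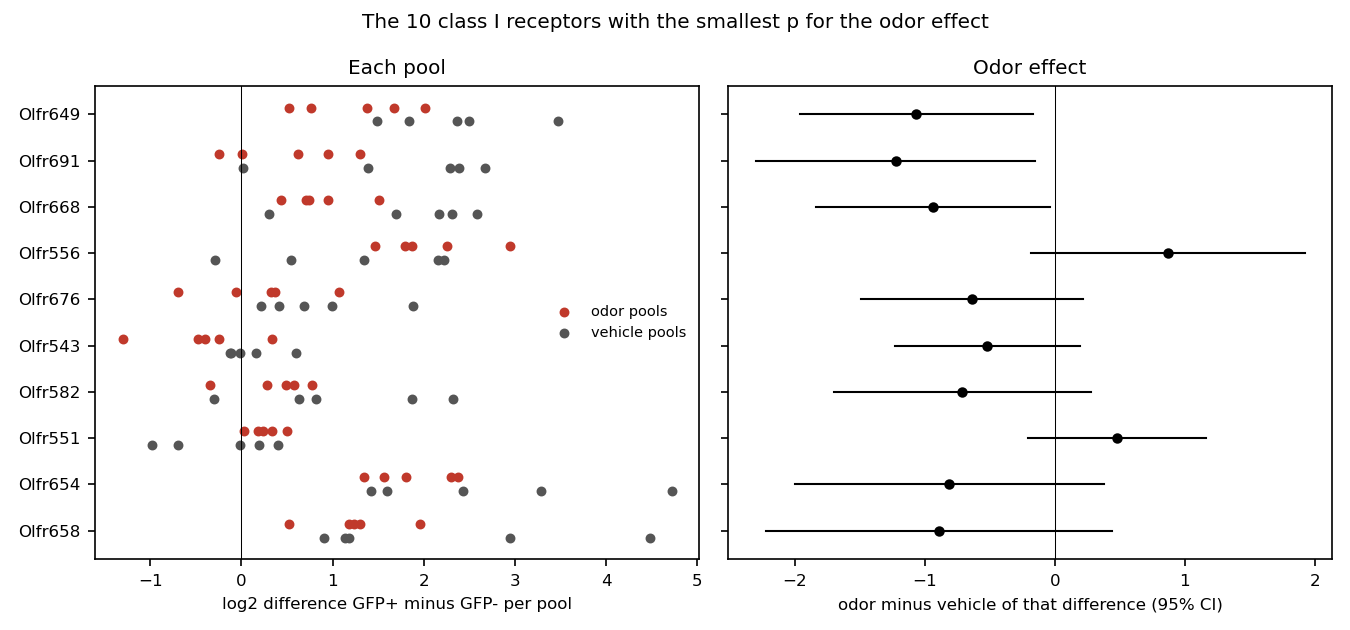
Left, log2 difference GFP+ minus GFP- in each odor pool (red) and vehicle pool (grey) for the 10 class I receptors with the smallest p for the odor effect; right, the odor effect with its 95% interval. The intervals of Olfr649, Olfr691 and Olfr668 lie below 0 and those of the other 7 span it; all adjusted p values are 1.0.

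Odor and vehicle samples were also compared within each fraction. In GFP+ cells no receptor passed (0.0% of all probe sets; smallest adjusted p 1.0, limma), and 1 of 119 (0.84%) had an unadjusted p under 0.05, against 1.46% of all other odorant receptors and 0.275% of all probe sets. The median difference was -0.16 and 92 of 119 values were negative, against a median of -0.02 over all other receptors and 0.03 over all probe sets. It was 0.10 without vehicle replicate 5 and 0.00 without odor replicate 2. The receptor with an unadjusted p under 0.05 was Olfr649, at -0.93 (95% interval -1.83 to -0.03, adjusted p = 1.0, limma). After it came Olfr629 (-0.77), Olfr663 (-0.41), Olfr691 (-0.92) and Olfr676 (-0.47). In GFP- cells no receptor passed (0.0% of all probe sets) and 0 had an unadjusted p under 0.05, against 0.312% of all other odorant receptors and 0.135% of all probe sets. In that fraction 60 values were positive and 59 negative, with a median of 0.01. The smallest p there belonged to Olfr644 (-0.87), Olfr551 (-0.53), Olfr631 (-0.48), Olfr658 (0.76) and Olfr577 (-0.46). The 95% interval lay within a 4-fold change either way for 109 receptors in GFP+ cells and for 105 in GFP- cells.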

How the data were processed

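Cells of the olfactory mucosa were profiled on Clariom S arrays, 1 array for each of 20 samples. The RNA input was 50 to 100 ng, amplified to biotinylated cRNA, per the labels' protocols. Per the submitters' processing notes, the authors used Affymetrix Expression Console; neither its version nor how it normalized and summarized probes is given in the sources used here. From its range, each deposited value is a log2 signal, and the values were used unchanged. Of 28846 rows the 6640 control rows were left out, and 22206 gene probe sets were kept. Symbols come from the platform annotation (19572 probe sets with 1 symbol, 2634 with none, 0 with several). How alike probes of related receptors bind was not tested. A planned comparison of receptor proteins was not run.

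Per the labels' titles, each numbered pool of 3 mice gave a GFP+ and a GFP- sample. Their differences in 10 pools entered 1 fit (limma 3.58.1, R 4.3.3, lmFit and eBayes, Benjamini-Hochberg adjustment at 0.05 over all gene probe sets), and odor was compared with vehicle in each fraction on 10 samples. The code was tested on simulated data. The number of arrays limits the precision. Identical values made up at most 0.00901% of any pair of arrays. In GFP+ cells, same-numbered odor and vehicle samples deviated together over all replicates (correlations 0.25, 0.52, 0.35, 0.16 and 0.86, all above the limit of 0.1). Over replicates 1 to 4 alone, number 1 in GFP+ cells was at -0.05, below that limit. In GFP- cells number 2 was at -0.38 over all replicates, so those numbers were not taken to pair.

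The receptors, lists and tests were chosen with earlier results of these data known. Named receptors are the 10 highest and 10 lowest in vehicle pools among those past the threshold and moving the same way in 5 of 5 pools, the 10 with the smallest p for the odor effect, the 5 in each fraction, and 14 known by ligand, orthologue or place; receptors named for a family, a neighbour or a call in a single condition were picked after their values were seen. Marker lists also covered dividing progenitors (3 of 4 lower in each condition), sustentacular cells (0 of 5 changed in odor pools, 2 lower in vehicle pools), red blood cells (1 of 1 lower in each), Trpm5 microvillar cells (2 of 4 lower in each) and vomeronasal neurons (1 of 2 lower in each). Alternatives were quantile normalization, centring, dropping the 25% of probe sets with the lowest mean, an intensity trend, array weights, a term for replicate 5, leaving out pools, and the pairing.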

Additional observations from a re-analysis of the deposited data

Results flagged for a closer look

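Among 104 groups of 5 samples of named receptors, 3 held a sample far from the other 4 (gap over range above 0.71); chance gives about 1 in 20. Olfr649 read 8.23 in GFP+ cells of odor replicate 5, where the other odor samples read 6.75 to 7.12. Olfr551 read 8.16 in GFP- cells of vehicle replicate 5, where the others read 6.30 to 6.74. Olfr631 read 7.06 in GFP- cells of vehicle replicate 1, where the others read 4.83 to 5.31. The arrays of replicate 5 had the highest median signals, and the part of that in the first 2 values was not tested.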

How the results depend on the processing

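Counts of class I receptors called in the sort moved by more than 1.5 times under 3 settings. In odor pools the count of 39 became 61 with array weights and 18 with no replicate block, that is, without matching the fractions of a pool. In vehicle pools the count of 40 became 20 with no replicate block. Leaving out each pool in turn gave 25 to 48 in odor pools, the lowest without odor replicate 5, and 35 to 43 in vehicle pools. Without both pools numbered 5 the counts were 28 and 37. Calls over all probe sets also moved. In odor pools 1752 became 3366 with array weights and 1050 with no replicate block, and in vehicle pools 2024 became 1198 with no block. Leaving out each pool gave 1296 to 2127 over all probe sets in odor pools and 1532 to 2316 in vehicle pools. The class I median change in odor pools became 0.56 on centring and was 0.31 to 0.43 on leaving out each pool. In vehicle pools it was 0.40 to 0.57. No receptor passed for odor against vehicle under any alternative. With the replicate number as a block in GFP+ cells 0 passed and 9 had an unadjusted p under 0.05. Over all 22206 probe sets 820 had one under this block, against 61 in the main fit. No call changed under the block.

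Among the named receptors signs turned only for those that did not pass. Olfr65 became 0.19 on centring, 0.02 with array weights and 0.18 without both pools numbered 5 in odor pools, and 0.15 on centring and 0.12 without those pools in vehicle pools. Olfr690 became 0.15 with quantile normalization, 0.11 on centring, 0.01 with array weights and 0.24 without both pools numbered 5 in odor pools, and -0.55 with array weights in vehicle pools. Olfr64 became -0.29 in vehicle pools without pools 5. Leaving out each pool in turn gave ranges that span 0 for Olfr64 (-0.29 to 0.5 in vehicle pools), Olfr65 (-0.22 to 0.18 in odor and -0.54 to 0.32 in vehicle pools), Olfr543 (-0.02 to 0.16 in vehicle pools), Olfr558 (-0.06 to 0.27 in odor pools) and Olfr690 (-0.35 to 0.24 in odor and -0.22 to 0.78 in vehicle pools). Causes were not tested. With 29 of 119 receptors at background in all groups, a lack of change there says little.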
